A study of Ovis aries with 32 samples.

Results

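PDGFRA, PDGFRB, PI16, CD55, GSN, CLEC3B, FAP, THY1, DPT and CD34 are genes used to mark adventitial fibroblasts and the progenitor cells of fat. They were taken as a list of 10 symbols, and all 10 were rows among the 28524 genes of the count table. Each of the 10 was kept by the filter on low counts in every comparison, so all 10 were tested in each. Their levels were followed through 4 fat depots of sheep, a species in which exposure of the female fetus to excess testosterone is used as a model of polycystic ovary syndrome. Messenger RNA was read at its 3′ end, which gives about 1 read position per transcript, so counts were scaled to library size and not to gene length.

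The 8 animals were adult daughters, 4 of control mothers (control sheep 98, 131, 132 and 201) and 4 of mothers injected with testosterone while pregnant (testosterone sheep 48, 185, 233 and 255). The injections held 100 mg of testosterone propionate (1.2 mg/kg) in 2 ml of corn oil and were given 2 times per week, starting on day 30 and ending on day 90 of pregnancy. No more than 1 daughter of a pregnancy entered a group. All 8, controls included, had lost their ovaries after the second breeding season and had been given steroids: an estradiol implant of 1 cm, then 2 progesterone inserts for 14 days, then 4 estradiol implants of 30 mm for 18 h. Every sheep gave 1 library from each of visceral (mesenteric, at the ventral rumen), subcutaneous (sternal), perirenal and epicardial fat, so each of the 8 groups held 4 libraries of 4 animals.

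The adventitia is the outer sheath of a blood vessel, and in fat it holds stromal cells that can divide and give rise to fat cells. Work in mice describes a layered system, in which cells rich in PI16, DPP4 and CD55 lie upstream of committed preadipocytes. PDGFRA and PDGFRB are the receptor tyrosine kinases for platelet-derived growth factors, of which PDGFRA marks fibroblasts and adipocyte progenitors and PDGFRB marks fibroblasts and also the mural cells of small vessels. None of these genes belongs to 1 cell type alone: CD34 is also made by endothelium, CD55 by many blood and tissue cells, and GSN by muscle. The libraries came from whole tissue, so fewer cells of a type and less RNA per cell cannot be told apart.

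Total counts ran from 784135 to 8267824 per library, and the lowest raw count of any of the 10 genes was 4, for CD55 in the smallest library (subcutaneous, testosterone sheep 48). Some libraries stood apart from their group. ARGLU1, a splicing gene with a nuclear-retained transcript, reached 25675 CPM (counts scaled to library size) in that smallest library. Sheep 255 of the testosterone group had 18437 CPM of it in visceral fat. Of 14 cardiac muscle genes, 12 were in the table. Their summed level ran from 138 to 19474 CPM in control and from 130 to 28955 CPM in testosterone epicardial libraries, against at most 202 CPM elsewhere. TNNT2 and MYL2 had no count in 25 and 24 of the 32 libraries. HOXC6, a gene of trunk position, was at 95.5 CPM in the epicardial library of testosterone sheep 255 and at no more than 2.17 CPM in the other 7 epicardial libraries, so that library goes against its label on this gene. Summed adipocyte markers (10 genes) ran from 10130 to 25406 CPM in control epicardial fat and from 28716 to 56180 CPM in the other control depots, and the part of that gap in the depot differences below was not tested.

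The first question was how the 10 genes differ between depots in control sheep. In edgeR's joint test over the depots, with sheep as a block, 7 of the 10 passed a false discovery rate (FDR) of 0.05. Of all 13369 genes tested, 39.9% passed. An unadjusted p under 0.05 was reached by 8 of the 10 and by 6788 of all 13369 genes. The 7 were FAP (adjusted p = 8.49e-09), PDGFRA (7.09e-05), GSN (1.82e-04), CD34 (6.03e-04), PDGFRB (0.0145), CD55 (0.0214) and DPT (0.0449). PI16 (0.0642), THY1 and CLEC3B did not pass. The depots in which they were high were not the same: subcutaneous fat had the highest means of FAP, GSN and CD34, and epicardial fat had the highest means of PDGFRA and DPT and the lowest of FAP and PDGFRB. Differences are given below as log2 fold changes with a standard error (SE), and levels as CPM with the SD of 4 libraries.

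**Figure D1:**
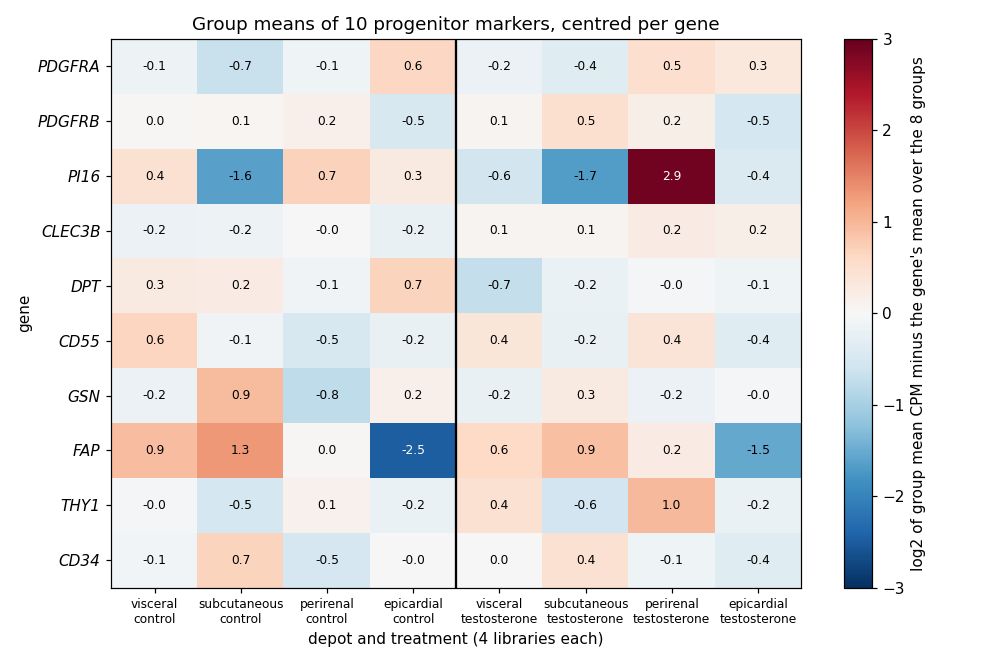
Group means of the 10 genes on the log2 scale, each gene (rows) centred on its own mean over the 8 groups (columns, 4 libraries each; controls on the left, testosterone sheep on the right). FAP has its lowest values (blue) in epicardial fat of both treatment groups, and PI16 has its lowest in subcutaneous fat and its highest (red) in perirenal fat of testosterone sheep.

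FAP, a serine protease of the cell surface of activated fibroblasts, had the largest log2 differences between depots of the 10 genes in control sheep. In epicardial fat of control sheep 98, 131, 132 and 201 it was at 12.3, 11.7, 10.2 and 12.9 CPM. The same sheep held 65.4, 71.0, 79.1 and 55.6 CPM in perirenal, 187, 81.5, 108 and 120.2 CPM in visceral, and 218, 149, 151 and 131 CPM in subcutaneous fat. Epicardial libraries were thus below every library of the other depots, perirenal libraries were below every visceral and subcutaneous one, and subcutaneous fat was the highest depot in 4 of 4 control sheep.

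FAP was lower in epicardial fat than in subcutaneous fat by 3.74 on the log2 scale (SE 0.21, edgeR adjusted p = 1.63e-09), 13.8-fold in the group means. It was higher in visceral than in epicardial fat by 3.32 (SE 0.21, adjusted p = 2.00e-08) and in perirenal than in epicardial fat by 2.50 (SE 0.20, adjusted p = 4.23e-07). Subcutaneous exceeded perirenal fat by 1.244 (SE 0.18, adjusted p = 2.53e-04), and these 4 differences passed without any 1 sheep. The visceral excess over perirenal fat was 0.82 (SE 0.18, adjusted p = 0.0481), and it no longer passed without any one of control sheep 98, 131, 132 or 201, without the block or without the libraries that stood apart (adjusted p up to 0.305). Visceral and subcutaneous fat, the neighbours at the top, differed by -0.42, which did not pass (adjusted p = 0.121).

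**Figure D2:**
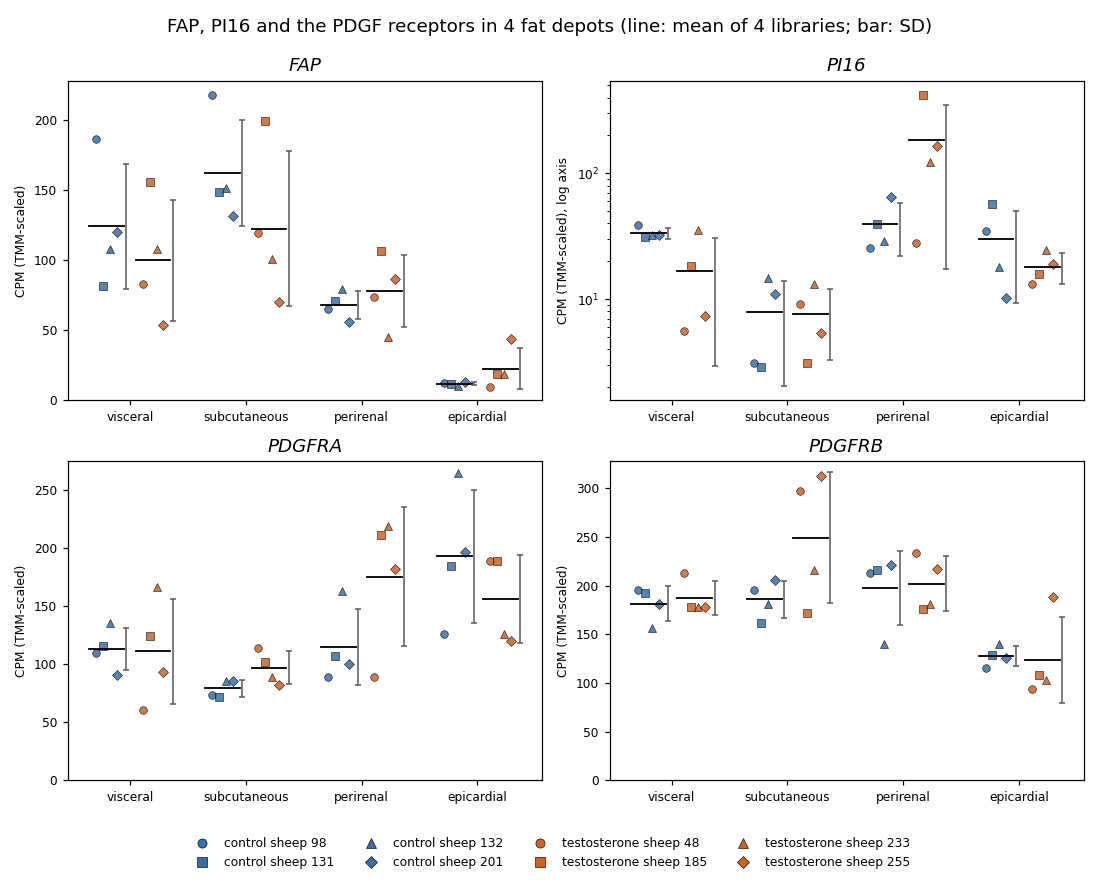
CPM of FAP, PI16, PDGFRA and PDGFRB in each library by depot (blue, control; orange, testosterone; 1 symbol per sheep; line, mean; bar, SD of 4; the PI16 axis is logarithmic). Epicardial FAP lies between 9.11 and 43.6 CPM, under all other libraries, and perirenal PI16 of 3 testosterone sheep lies above all others.

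Relatives of FAP among the prolyl peptidases were followed too. Of DPP4, PREP, DPP8 and DPP9, all tested, 3 passed the joint test in control sheep. DPP4, the nearest relative of FAP and itself a progenitor marker, was higher in visceral than in subcutaneous (1.45, SE 0.29) and epicardial fat (1.29, SE 0.29), and subcutaneous minus perirenal was -0.90 (SE 0.30, edgeR adjusted p = 0.035). In subcutaneous fat, where FAP had its highest control mean (162 ± 38.0 CPM; SD, n = 4), DPP4 was at 7.76 ± 7.24 CPM, against 20.5 ± 12.6 CPM in visceral fat. Both had their lowest control mean in epicardial fat (7.00 ± 0.903 CPM for DPP4 and 11.8 ± 1.17 CPM for FAP). For DPP4 the log2 difference from visceral fat was larger in subcutaneous than in epicardial fat. Its order of subcutaneous and epicardial fat thus depends on the measure.

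The receptors of platelet-derived growth factor differed from epicardial fat in opposite directions, with PDGFRA highest and PDGFRB lowest there. PDGFRA was at 126, 185, 265 and 196 CPM in epicardial fat of control sheep 98, 131, 132 and 201, and at 73.6, 71.9, 85.5 and 85.3 CPM in their subcutaneous fat. Visceral fat held 109.6, 116, 136 and 91.0 CPM and perirenal fat 89.3, 107, 163 and 100.4 CPM. In 4 of 4 control sheep epicardial fat was the highest depot and subcutaneous fat the lowest, and the subcutaneous libraries did not overlap with those of any other depot.

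Subcutaneous minus epicardial PDGFRA was -1.25 (SE 0.15, edgeR adjusted p = 2.21e-05), and epicardial fat also exceeded visceral fat (difference -0.77, SE 0.15, adjusted p = 0.00167) and perirenal fat (-0.77, SE 0.15, adjusted p = 0.00162). These 3 differences passed without any 1 sheep. Subcutaneous fat was below visceral fat by 0.49 (SE 0.15, adjusted p = 0.0410) and below perirenal fat (-0.48, SE 0.15, adjusted p = 0.0299). Both of those were lost without the block, without sheep 131 or without sheep 132, and the first also without sheep 98. Visceral and perirenal fat, the neighbours in the middle, were at 113 ± 18.4 and 115 ± 32.8 CPM.

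PDGFRB was lowest in epicardial fat, at 115, 129, 140.3 and 126 CPM in control sheep 98, 131, 132 and 201. It was at 195, 193, 157 and 181 CPM in visceral, 195, 161, 181 and 206 CPM in subcutaneous, and 212, 216, 140.0 and 221 CPM in perirenal fat. Sheep 132 was the only one of the 4 whose perirenal level was below its epicardial level. The excess over epicardial fat was 0.47 (SE 0.14, edgeR adjusted p = 0.0264) in visceral, 0.53 (SE 0.14, adjusted p = 0.0133) in subcutaneous and 0.58 (SE 0.14, adjusted p = 0.00763) in perirenal fat.

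All 3 PDGFRB differences were lost without sheep 98 or without sheep 201, and without the libraries that stood apart (adjusted p up to 0.12). The visceral and perirenal ones were also lost without sheep 131. Among the other depots PDGFRB was at 181 ± 17.5, 186 ± 19.2 and 197 ± 38.3 CPM, with SDs wider than the gaps. PDGFRB also marks mural cells, and the part of their RNA in its values was not tested. To set beside it, the 10 of 11 pericyte and smooth muscle markers in the table were summed. They ran from 1328 to 1713 CPM in control epicardial fat, within the 781 to 3441 CPM of the other control depots, and none was at 0 in any library. Of the 10 markers, 3 differed between visceral and epicardial fat (DES, CSPG4 and NOTCH3, all lower in visceral). Between subcutaneous and epicardial fat 4 differed (DES, TAGLN, MYH11 and CNN1, all lower in subcutaneous). Between perirenal and epicardial fat 3 differed (CSPG4 and NOTCH3 lower and ACTA2 higher in perirenal). Cardiac muscle genes summed to 138 to 19474 CPM in the same control epicardial libraries. The part of heart muscle RNA in these marker differences was not tested.

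Of the 4 ligands, PDGFA, PDGFB, PDGFC and PDGFD, only PDGFA passed the joint test in control sheep. PDGFA, which signals through PDGFRA, was lower in visceral than in subcutaneous fat (-0.78, SE 0.19, edgeR adjusted p = 0.011) and than in epicardial fat (-0.62, SE 0.19, adjusted p = 0.023). Its level was 26.7 ± 4.33 CPM in visceral and 46.1 ± 8.57 CPM in subcutaneous fat, where PDGFRA itself was lowest. PDGFC, another PDGFRA ligand, was higher in subcutaneous than in epicardial fat by 0.91 (SE 0.28, adjusted p = 0.024).

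PI16, a secreted and membrane-bound peptidase inhibitor that marks the most upstream adventitial fibroblasts, was lowest in subcutaneous fat. Control sheep 98, 131, 132 and 201 held 3.11, 2.92, 14.7 and 11.1 CPM there, against 38.7, 31.0, 32.2 and 32.6 CPM in visceral and 25.4, 39.8, 29.1 and 65.2 CPM in perirenal fat. Epicardial fat held 34.6, 57.0, 18.1 and 10.3 CPM. Subcutaneous libraries did not overlap with visceral or perirenal ones, and subcutaneous fat was lowest in 3 of 4 control sheep.

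Only the subcutaneous deficit against perirenal fat passed for PI16, at -2.23 (SE 0.63, edgeR adjusted p = 0.0277). It was lost without sheep 98, 131 or 201, without the libraries that stood apart and with no filter on low counts (adjusted p up to 0.107). The visceral excess over subcutaneous fat was 2.04 (adjusted p = 0.0568) and the subcutaneous difference from epicardial fat -1.86 (adjusted p = 0.0658). With DESeq2 both passed, at adjusted p of 0.0103 and 0.0118. They passed without the block as well, and so did the joint test of PI16 by either route (adjusted p of 0.0165 with DESeq2 and 0.0269 without the block).

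CD55, the complement decay-accelerating factor, is a further marker of the upstream cells. Its mean was highest in visceral fat, where control sheep 98, 131, 132 and 201 held 45.0, 22.0, 13.2 and 15.5 CPM. Means elsewhere were 14.3 ± 2.86 CPM in subcutaneous, 11.1 ± 2.57 CPM in perirenal and 13.3 ± 2.51 CPM in epicardial fat, so the visceral mean of 23.9 ± 14.5 CPM rested on sheep 98 and 131. None of the 6 pairs of depots passed for CD55 in edgeR; visceral minus perirenal was 1.02 (adjusted p = 0.0868). That difference passed with DESeq2 (adjusted p = 0.0208), and in edgeR with no filter (0.0432) and without sheep 132 (0.0424). Visceral minus epicardial CD55 was 0.71 (SE 0.26, edgeR adjusted p = 0.0593), and it passed with DESeq2 (0.0453), with no filter (0.0356) and without sheep 132 (0.0235). The joint edgeR call of CD55 was lost without sheep 98, 131 or 201 or the libraries that stood apart (adjusted p up to 0.249).

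CD68, a macrophage gene, moved with CD55 across visceral libraries: it was at 143, 88.9, 38.2 and 54.7 CPM in the 4 control sheep in the same order. Over deviations of all 32 libraries from their group means, Pearson's r with CD55 was 0.87 for CLEC7A, 0.80 for ST3GAL5 and 0.78 for CD68, the 3 genes most like it of 14224 ranked. The macrophage list (7 of 9 genes in the table) summed to 661 to 832 CPM in control visceral, 339 to 542 CPM in subcutaneous, 572 to 845 CPM in perirenal and 300.2 to 597 CPM in epicardial fat, with CD14 at 0 in 1 library and the other genes at 0 in none. The part of macrophage RNA in the CD55 values was not tested. CD59, the other membrane regulator of complement that could be followed, was lower in epicardial fat than in visceral (by 1.18, SE 0.17), subcutaneous (1.12, SE 0.17) and perirenal fat (0.88, SE 0.17).

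GSN, gelsolin, which severs and caps actin filaments, had its highest control mean in subcutaneous fat. Sheep 98, 131, 132 and 201 held 557, 455, 1226 and 684 CPM in subcutaneous fat, 335, 291, 376 and 349 CPM in visceral, 258, 275, 539 and 622 CPM in epicardial, and 184, 224, 294 and 193 CPM in perirenal fat. In 4 of 4 sheep subcutaneous fat was highest and perirenal fat lowest, and subcutaneous libraries lay above all visceral and perirenal ones.

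GSN was higher in subcutaneous than in perirenal fat by 1.65 (SE 0.22, edgeR adjusted p = 1.42e-04), which passed without any 1 sheep. Visceral minus subcutaneous was -1.04 (SE 0.21, adjusted p = 0.00482), lost only without sheep 132. Subcutaneous minus epicardial was 0.77 (SE 0.21, adjusted p = 0.0154), lost without sheep 98 or 132, without the block and without the libraries that stood apart. Perirenal minus epicardial was -0.88 (SE 0.22, adjusted p = 0.00753), lost without sheep 201. Of 5 tested relatives that sever or bind actin (SCIN, AVIL, CAPG, SVIL and FLII), SVIL alone passed the joint test. SVIL was also highest in subcutaneous fat: visceral minus subcutaneous was -1.03 (SE 0.19), and the subcutaneous excess was 0.55 (SE 0.18) over perirenal and 0.58 (SE 0.19) over epicardial fat.

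CD34, a sialomucin of progenitors and endothelium, was highest in subcutaneous fat in 4 of 4 control sheep. Sheep 98, 131, 132 and 201 held 109.7, 150.2, 176 and 148 CPM there and 43.1, 62.5, 55.5 and 97.4 CPM in perirenal fat, which did not overlap. Visceral and epicardial fat lay between, at 87.1 ± 13.5 and 90.9 ± 14.8 CPM. Subcutaneous minus perirenal was 1.21 (SE 0.19, edgeR adjusted p = 3.48e-04), which passed without any 1 sheep. Visceral minus subcutaneous was -0.75 (SE 0.18, adjusted p = 0.0125), lost without sheep 132, and subcutaneous minus epicardial was 0.67 (SE 0.18, adjusted p = 0.0137), lost without sheep 131. Perirenal minus epicardial was -0.54 (SE 0.19, adjusted p = 0.0391) and was lost without sheep 98, 131 or 132, without the block and without the libraries that stood apart.

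Since endothelium also makes CD34, 10 endothelial markers were summed. They ran from 1060 to 1192 CPM in subcutaneous and from 1110 to 1259 CPM in perirenal fat of control sheep, and from 778 to 874 CPM in epicardial fat, and none of the 10 was at 0 in any library. The perirenal and subcutaneous ranges overlapped, and the part of endothelial RNA in the CD34 values was not tested. PODXL, a relative of CD34 on endothelium, was lower in subcutaneous than in perirenal fat (-0.50, SE 0.17, edgeR adjusted p = 0.042), the opposite of CD34.

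DPT, dermatopontin, a matrix protein that binds decorin and TGF-beta, had its highest mean in epicardial fat. In epicardial fat of control sheep 98, 131, 132 and 201 it was at 933, 1371, 1747 and 1239 CPM and in perirenal fat at 620.1, 586, 830.3 and 1019.6 CPM. Perirenal minus epicardial was -0.81 (SE 0.22, edgeR adjusted p = 0.0144), lost without sheep 131 or 132. Visceral and subcutaneous fat were at 991 ± 242 and 974 ± 103 CPM. The joint call of DPT was lost without sheep 98, 131 or 132 and with no filter (adjusted p up to 0.219).

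THY1 and CLEC3B passed for no pair of depots in control sheep. THY1, the surface glycoprotein CD90 of stromal cells, was lowest in subcutaneous fat in 3 of 4 sheep, at 13.1 ± 2.18 CPM, against 20.7 ± 6.85 CPM in perirenal fat, where sheep 132 was low at 10.8 CPM. Subcutaneous minus perirenal was -0.61 (edgeR adjusted p = 0.0710), and it passed without sheep 132 (-0.83, adjusted p = 0.0129). CLEC3B, tetranectin, a plasminogen-binding C-type lectin, was the flattest of the 10, with control means from 19.9 ± 5.93 to 23.0 ± 3.604 CPM.

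Counted by pair of depots in control sheep, 5 of the 10 genes differed between subcutaneous and perirenal fat (3 higher and 2 lower in subcutaneous; 23.6% of all genes passed). Between subcutaneous and epicardial fat 5 differed (4 higher, 1 lower; 23.1% of all genes), and between perirenal and epicardial fat 6 (2 higher, 4 lower; 25.2%). Visceral and subcutaneous fat differed in 3 (1 higher, 2 lower; 14% of all genes), visceral and epicardial fat in 3 (2 higher, 1 lower; 21.9%), and visceral and perirenal fat in 1, FAP (0.613%). These 23 calls fell to between 14 and 19 when 1 sheep was left out.

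**Figure D3:**
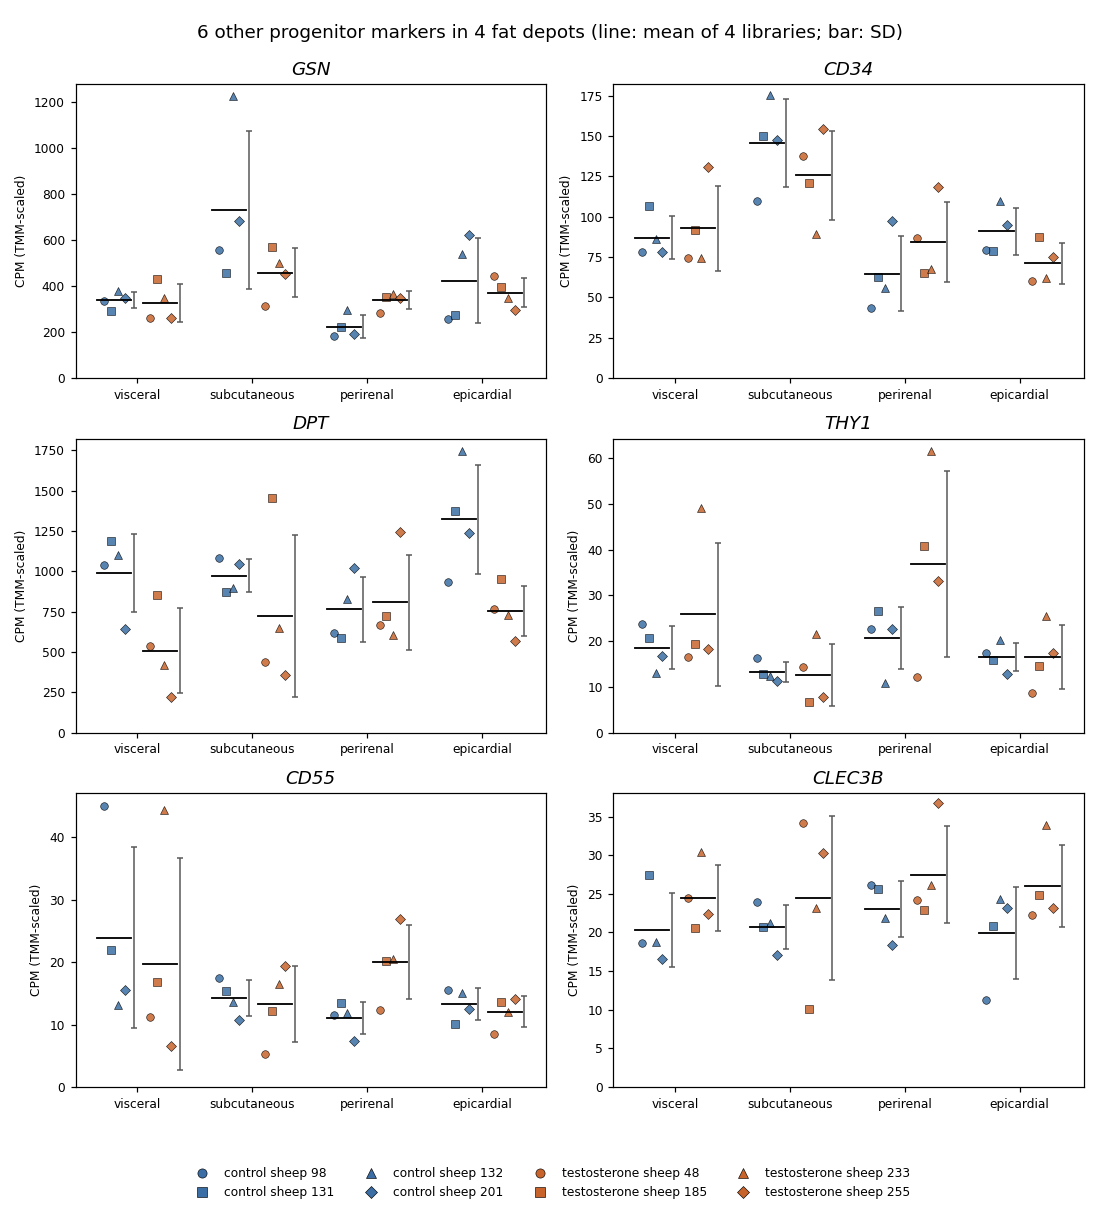
CPM of GSN, CD34, DPT, THY1, CD55 and CLEC3B in each library by depot (blue, control; orange, testosterone; 1 symbol per sheep; line, mean; bar, SD of 4). GSN and CD34 have their highest control means in subcutaneous fat (730.5 and 146 CPM), and DPT has its highest in epicardial fat (1323 CPM).

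Companion genes of adventitial progenitors, a list of 18 with all in the table and 16 tested, also differed widely: 13 passed the joint test in control sheep. In subcutaneous against perirenal fat 8 of 16 passed, 3 higher (SFRP4 at 2.43 and ACKR3 at 1.29 among them) and 5 lower (EFEMP1 at -2.49), with a list median of -0.35. EFEMP1, a matrix glycoprotein, shared the subcutaneous low of PI16: it was at 65.1 ± 20.03 CPM there and at 361 ± 33.6 CPM in visceral fat. CREB5, a transcription factor, was highest in epicardial fat, and its difference from it was -1.50 in visceral, -1.67 in subcutaneous and -1.62 in perirenal fat. MFAP5, a microfibril protein, was lower in subcutaneous than in epicardial fat (-1.34, SE 0.30).

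Of the list of committed preadipocyte and other stromal genes, 16 of 17 were in the table and tested, and 12 passed the joint test in control sheep. CXCL14, a chemokine of stromal cells, was lower in visceral than in subcutaneous fat (-6.03, SE 1.16, edgeR adjusted p = 0.0064), though its subcutaneous level was uneven at 23.3 ± 34.7 CPM. GDF10, a growth factor of the TGF-beta family, had its highest mean in epicardial fat (4.85 ± 1.38 CPM). Its difference from epicardial fat was -4.59 (SE 0.62) in perirenal and -4.00 (SE 0.58) in visceral fat. CXCL14 had no count in 6 and GDF10 in 9 of the 32 libraries, so the size of these differences is uncertain. LUM, a matrix proteoglycan, was lower in subcutaneous than in epicardial fat (-2.17, SE 0.29). Neither list therefore had 1 depot in which its genes were all high.

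In testosterone sheep the same joint test passed for 4 of the 10 genes, where 4.82% of all 13411 genes passed. An unadjusted p under 0.05 was reached by 6 of the 10 and by 3101 of all 13411 genes. The 4 were PI16 (edgeR adjusted p = 0.00177), FAP (0.0199), THY1 (0.0310) and PDGFRB (0.0476), of which PI16 and THY1 were not called in control sheep. A gene called in 1 treatment group and not in the other is not shown to differ between them, and the test of that difference is given further on. By pair of depots, 2 of the 10 passed between subcutaneous and perirenal fat (2.23% of all genes), 3 between subcutaneous and epicardial fat (4.5%), 2 between perirenal and epicardial fat (1.82%) and 1 between visceral and epicardial fat (1.66%). None passed between visceral and subcutaneous fat (0.664% of all genes) or between visceral and perirenal fat (0.082%) in edgeR. In each of these 2 pairs 3 of the 10 had an unadjusted p under 0.05, as did 1491 and 1627 of all 13411 genes. DESeq2 passed THY1 in the first (adjusted p = 0.0482) and PI16 in the second.

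PI16 in testosterone sheep 48, 185, 233 and 255 was at 28.1, 417, 124 and 165 CPM in perirenal fat and at 9.20, 3.09, 13.1 and 5.38 CPM in subcutaneous fat. Perirenal fat was the highest depot for PI16 in 4 of 4 testosterone sheep. Subcutaneous minus perirenal was -4.58 (SE 0.68, edgeR adjusted p = 0.00462), which passed without any 1 sheep, with a range of -5.11 to -3.56 over all alternatives. Perirenal minus epicardial was 3.07 (SE 0.61, adjusted p = 0.0227) and was lost without sheep 185 or 233. Visceral minus perirenal was -3.43 (SE 0.60) and did not pass (adjusted p = 0.0532).

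FAP remained lowest in epicardial fat in 4 of 4 testosterone sheep, at 9.11, 18.7, 18.6 and 43.6 CPM in sheep 48, 185, 233 and 255. The lowest library of any other depot was at 45.2 CPM (perirenal, sheep 233), so the groups did not overlap. The excess over epicardial fat was 2.38 (SE 0.43, edgeR adjusted p = 0.00632) in subcutaneous, 2.09 (SE 0.42, adjusted p = 0.0208) in visceral and 1.71 (SE 0.41, adjusted p = 0.0490) in perirenal fat. All 3 and the joint test of FAP were lost without sheep 48, 185 or 233, and the perirenal one also without the block and with other size factors.

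**Figure D4:**
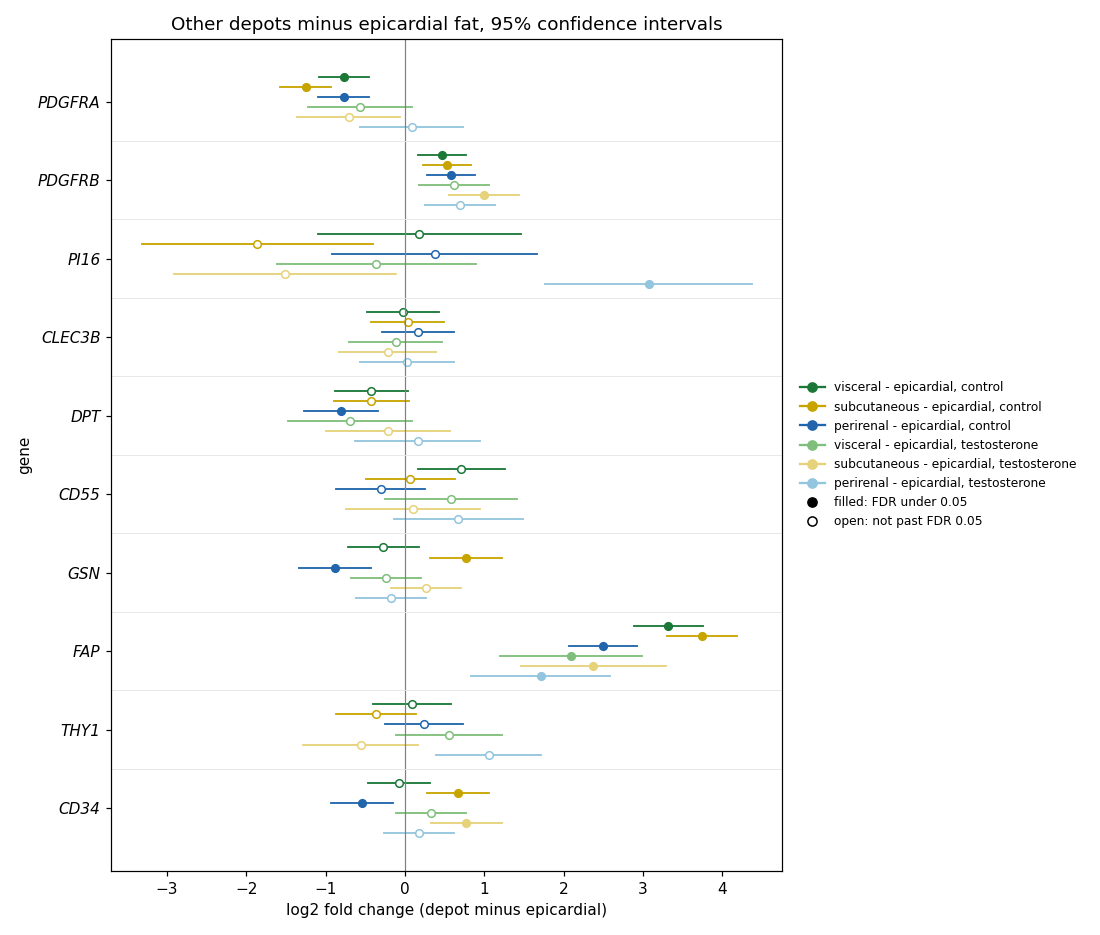
Log2 fold change of visceral, subcutaneous and perirenal fat against epicardial fat for each gene, in control (dark) and testosterone sheep (light), with 95% confidence intervals; filled points passed an FDR of 0.05. FAP lies to the right of 0 in all 6 contrasts, from 1.71 to 3.74.

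PDGFRB exceeded epicardial fat in subcutaneous fat of testosterone sheep by 1.00 (SE 0.21, edgeR adjusted p = 0.0134). Sheep 48, 185, 233 and 255 held 297, 171, 216 and 313 CPM in subcutaneous and 93.4, 108, 102 and 189 CPM in epicardial fat. The high epicardial value was that of sheep 255, the library with HOXC6. The subcutaneous call was lost without sheep 48, 185 or 233. Without sheep 255 the visceral and perirenal differences of PDGFRB from epicardial fat passed as well, at 0.82 and 0.89. PDGFRA was highest in perirenal fat in 3 of 4 testosterone sheep (mean 175 ± 59.6 CPM, against 156 ± 38.1 CPM in epicardial fat). Its joint test passed only once the libraries that stood apart were left out (edgeR adjusted p = 0.00677). GSN was highest in subcutaneous fat in 3 of 4 testosterone sheep, and perirenal fat was its lowest depot in 1 of 4.

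THY1 was lower in subcutaneous than in perirenal fat (-1.61, SE 0.33, edgeR adjusted p = 0.0200), with 14.5, 6.70, 21.5 and 7.88 CPM against 12.1, 40.8, 61.5 and 33.1 CPM in the same sheep order, so that sheep 48 ran the other way. That THY1 call was lost without the block and without sheep 185, 233 or 255. CD34 was highest in subcutaneous fat in 4 of 4 testosterone sheep, and its excess over epicardial fat was 0.78 (SE 0.21, adjusted p = 0.0465), lost without any 1 of sheep 48, 185, 233 and 255, without the block, without the libraries that stood apart, with other size factors and with no filter.

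Of the companion list 4 of 16 genes passed the joint test in testosterone sheep (EFEMP1, MFAP5, CREB5 and COL14A1), and of the committed preadipocyte list 3 of 15 did. EFEMP1 was again lower in subcutaneous than in perirenal fat (-2.09, SE 0.34), and so was MFAP5 (-1.92, SE 0.39). COL14A1, a fibril-associated collagen, was higher in visceral than in subcutaneous fat by 1.65 (SE 0.33).

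The second question was whether prenatal testosterone altered the 10 genes within a depot. None of the 10 passed in visceral, subcutaneous, perirenal or epicardial fat or over counts summed per sheep, in edgeR or in DESeq2, which gave no adjusted p for 5 of the 10 in epicardial fat. In edgeR 0% of all genes passed in each depot and 0.00654% (1 gene) over summed counts. An unadjusted p under 0.05 was reached by 1 of the 10 in visceral fat, 0 in subcutaneous fat, 3 in perirenal fat, 2 in epicardial fat and 1 over summed counts. For none of the 10 did the treatment groups of a depot separate, where 5.61% of all genes did in visceral fat, 3.31% in subcutaneous fat, 2.91% in perirenal fat and 3.71% in epicardial fat. With 4 sheep a group the intervals were wide, so values and 95% confidence intervals (CI) follow.

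**Figure D5:**
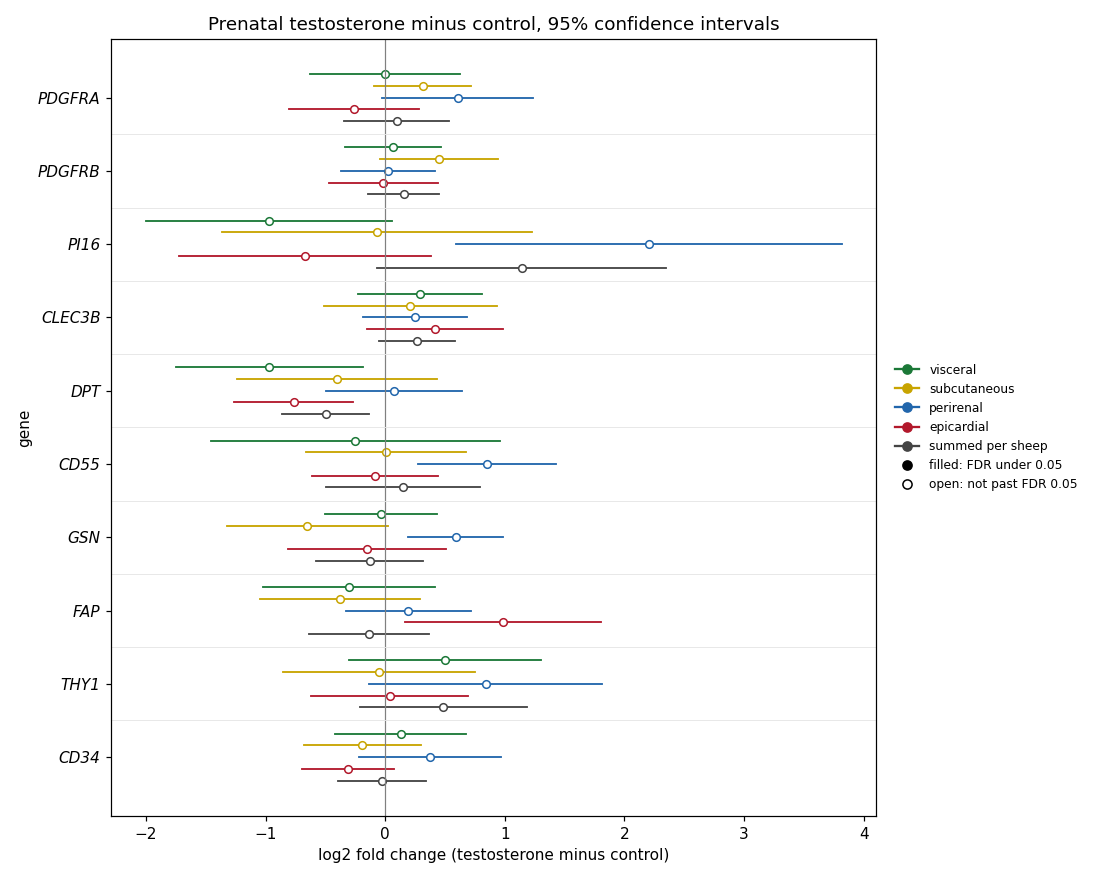
Log2 fold change of testosterone minus control for each gene in the 4 depots and over counts summed per sheep, with 95% confidence intervals from edgeR; all points are open, since none passed an FDR of 0.05. The widest interval is that of perirenal PI16, from 0.59 to 3.82.

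In perirenal fat the 3 genes with an unadjusted p under 0.05 were PI16, CD55 and GSN. PI16 was at 25.4, 39.8, 29.1 and 65.2 CPM in control sheep 98, 131, 132 and 201 and at 28.1, 417, 124 and 165 CPM in testosterone sheep 48, 185, 233 and 255. Sheep 185, 233 and 255 were above every control and sheep 48 was within the control range. The log2 difference was 2.20 (SE 0.71, CI 0.59 to 3.82), and it did not pass (edgeR adjusted p = 0.914, unadjusted 0.0132, DESeq2 adjusted p = 0.370). Without sheep 185 it was 1.41, and without sheep 48 it was 2.56.

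CD55 in perirenal fat was at 11.6, 13.4, 11.9 and 7.40 CPM in the controls and at 12.4, 20.2, 20.5 and 26.9 CPM in the testosterone sheep. The difference was 0.85 (SE 0.26, CI 0.27 to 1.43, edgeR adjusted p = 0.879, unadjusted 0.00803). GSN was at 184, 224, 294 and 193 CPM in controls and at 281, 354, 366 and 349.8 CPM in testosterone sheep, a difference of 0.59 (SE 0.18, CI 0.19 to 0.98, adjusted p = 0.879, unadjusted 0.00729). As for PI16, sheep 185, 233 and 255 were above every control and sheep 48 was not. PDGFRA (0.61, SE 0.28) and THY1 (0.84, SE 0.44) had that same placing of the 4 sheep in perirenal fat.

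The log2 difference of perirenal fat was above 0 for 10 of the 10 genes, with a median of 0.48, where the median over all genes was 0.0047; the genes share their libraries and are not independent. Testosterone sheep 255 lay above all controls for 9 of the 10, sheep 185 for 6, sheep 233 for 5 and sheep 48 for 1, PDGFRB. The share of all genes above every control was not counted for these libraries, so whether the 10 genes stand out cannot be said. The 18 companion genes summed to 2546 to 2630 CPM in sheep 185, 233 and 255, to 1510 CPM in sheep 48 and to 1678 to 1819 CPM in the controls. None of the 17 companions tested there passed, and their median was 0.32. The 16 committed preadipocyte and other stromal genes had the same placing. They summed to 5825, 8311 and 6034 CPM in sheep 185, 233 and 255, to 5358 CPM in sheep 48 and to 4490 to 5742 CPM in the controls. Pericyte and smooth muscle markers did not follow that placing: their sums were 974, 1861, 3507 and 637 CPM for sheep 48, 185, 233 and 255, with controls at 781 to 3441 CPM. Adipocyte markers summed to 30957 to 56374 CPM and 29492 to 45506 CPM.

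DPT had the lowest p-values of the 10 in epicardial and visceral fat, with lower values in testosterone sheep. In epicardial fat it was at 933, 1371, 1747 and 1239 CPM in control sheep 98, 131, 132 and 201 and at 768, 950.4, 728 and 567 CPM in testosterone sheep 48, 185, 233 and 255. Sheep 185 alone reached into the control range. The difference was -0.76 (SE 0.22, CI -1.26 to -0.27, edgeR adjusted p = 0.729, unadjusted 0.00593, DESeq2 adjusted p = 0.0874). Nuclear-retained transcripts that mark library quality (ARGLU1 and LUC7L3, neither at 0 in any library) separated the same epicardial groups: their sums were 8057, 3198, 7764 and 2950.3 CPM for sheep 48, 185, 233 and 255, with controls at 1733 to 2918 CPM. Their part in the epicardial differences of DPT, and of FAP below, was not tested.

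In visceral fat DPT was at 1037, 1186, 1101 and 639.8 CPM in controls and at 535, 849.8, 421 and 219 CPM in testosterone sheep, a difference of -0.97 (SE 0.36, CI -1.75 to -0.18, edgeR adjusted p = 0.521). Subcutaneous fat gave 440.1, 1454, 647 and 357 CPM in testosterone sheep against 874 to 1079.6 CPM in controls, so sheep 185 was above every control and the other 3 were below. That difference was -0.40 (SE 0.38, adjusted p = 0.942), and perirenal fat gave 0.07 (SE 0.26). Raw counts were also summed over depots, so the deeper libraries of a sheep weighed more. In these sums DPT differed by -0.50 (SE 0.16, CI -0.86 to -0.13, edgeR adjusted p = 0.664, unadjusted 0.0127). The visceral library of sheep 255, the lowest, is the one with 18437 CPM of ARGLU1, and without it the visceral difference was -0.74.

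FAP in epicardial fat was at 10.2 to 12.9 CPM in controls and at 9.11, 18.7, 18.6 and 43.6 CPM in testosterone sheep 48, 185, 233 and 255. The difference was 0.98 (SE 0.37, CI 0.16 to 1.81, edgeR adjusted p = 0.821, unadjusted 0.0233). The highest value came from the sheep 255 library that carries HOXC6, and without it the difference was 0.47 (adjusted p = 0.705). In the other depots FAP differed by -0.30 (SE 0.33) in visceral, -0.38 (SE 0.31) in subcutaneous and 0.19 (SE 0.24) in perirenal fat.

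PI16 in visceral fat was at 31.0 to 38.7 CPM in controls. Testosterone sheep 48, 185, 233 and 255 held 5.62, 18.5, 35.7 and 7.32 CPM. The difference was -0.97 (SE 0.47, CI -1.997 to 0.061, edgeR adjusted p = 0.521). PI16 was thus lower in 3 of 4 sheep in visceral fat and higher in 3 of 4 in perirenal fat. Subcutaneous PDGFRB differed by 0.45 (SE 0.23, CI -0.04 to 0.94), with 3 of 4 testosterone sheep above every control, and subcutaneous GSN by -0.65 (SE 0.31, CI -1.33 to 0.02). CLEC3B differed by 0.21 to 0.42 in the 4 depots, with SEs of 0.20 to 0.33. CD34 differed by 0.38 (SE 0.27) in perirenal and -0.31 (SE 0.17) in epicardial fat.

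Whether the testosterone difference depended on the depot was tested in 1 model over all 32 libraries. None of the 10 genes passed in edgeR or DESeq2, and 0.00703% of all genes (1 of 14225) did in edgeR. An unadjusted edgeR p under 0.05 was found for 3 of the 10: GSN (0.00639), PI16 (0.00710) and FAP (0.0372), each with an adjusted p of 0.994. Among all 14225 genes, 656 had an unadjusted p under 0.05. The different numbers of calls among depots in control and testosterone sheep, 7 and 4, are therefore not shown to be a difference between the treatment groups.

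The last question was how far the 10 genes varied together. Over deviations of the 32 libraries from their group means, the 45 pairs had a median Pearson's r of 0.087, from -0.40 (PDGFRA with PDGFRB) to 0.59 (PI16 with THY1). PDGFRA with GSN (0.53) was the only other pair over 0.5, and 15 pairs were below 0. The 32 libraries come from 8 sheep and share depth and composition within a library, so these values describe and are not tested.

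Across the levels of all 32 libraries, the genes most like FAP of 14224 ranked were the position genes HOXB6 (r = 0.91) and HOXC6 (0.90), then MBD2 (0.89). HOXC6, like FAP, was low in epicardial libraries, except for the 95.5 CPM of HOXC6 in that of testosterone sheep 255, and libraries of 1 depot share such a level. For the deviations from group means genes near to PI16 included the matrix gene FBLN1 (0.71) and SERPINF1 (0.71). For PDGFRA they were PCOLCE2, an enhancer of collagen processing (0.75), MFAP5 (0.73) and ENPP1 (0.73). DPT was nearest to TIMP2, an inhibitor of matrix proteases (0.77), HRCT1 and PDIA6, and THY1 to FZD1, a Wnt receptor (0.73), FKBP5 and an unnamed locus. GSN was nearest to DCDC2 (0.84), ENOX1 and ARPC4. The best likeness for CLEC3B over levels was 0.59, the lowest of the 10.

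Of the 10 genes, 8 overlapped no other gene in RefSeq. THY1 overlapped the locus LOC105602204, which held at most 2.63 CPM in any library, and CD34 overlapped a pair of loci not followed here. Whether counting used the strand is not given in the sources used here, and without it the reads of such overlaps cannot be told apart.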

How the data were processed

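The data are 3′ end RNA-seq of 32 sheep fat libraries, deposited by the authors as whole raw read counts per gene, not normalized. The submitters' processing notes name STAR and featureCounts 1.6.1 beside Trimmomatic 0.36, without a role. The build and annotation are not named, and the strand setting is not given in the sources used here. No coordinates are printed. Gene neighbours came from a RefSeq table of the assembly ARS-UI_Ramb_v3.0, matched by symbol for 10 of 10 genes.

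From the counts, edgeR 4.0.16 (R 4.3.3) gave CPM with TMM scaling. Differences were tested by quasi-likelihood in edgeR (robust, filterByExpr at a minimum of 10 counts, FDR under 0.05 by Benjamini-Hochberg over every gene tested). To get an SE, the absolute log2 fold change was divided by the root of F. Depots were compared within each treatment group, blocked by sheep, testosterone with control within a depot and over counts summed per sheep, and both together in an interaction. Alternatives were DESeq2 1.42.0, its size factors, no filter, no block, leaving out each sheep, and leaving out 6 libraries that stood apart in earlier results (perirenal and epicardial of control sheep 98, epicardial of testosterone sheep 48 and 255, subcutaneous of 48, visceral of 255). The code was tested on simulated counts.

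The block rests on the design, since the 4 depots came from the same animals. Deviations of libraries from their group means correlated over 0.1 in 36 of 48 pairs of depots of 1 sheep (mean 0.257, from -0.317 to 0.638). In testosterone sheep 48, 185, 233 and 255 visceral with epicardial fat gave -0.000544, 0.205, 0.0240 and -0.317. Perirenal with epicardial fat gave 0.0932, 0.319, 0.0180 and -0.0436, and subcutaneous with epicardial fat 0.121, 0.394, -0.180 and 0.222. All 48 pairs of replicate libraries differed by more than sampling noise. Replicates are separate animals. In the testosterone tests within a depot or over summed counts, p-values measure the spread of levels between sheep. In the tests blocked by sheep, they measure how depot differences vary from sheep to sheep. Likeness was ranked by Pearson's r of log2 CPM (prior count 2), naming up to 3 nearest genes (1 is not reported here). All 10 genes were tested in every comparison. Among depots of testosterone sheep, and for testosterone within a depot, values are given for only some of the 10. Of each companion list up to 3 called genes were named by size of change. The 10 genes, the lists and the alternatives were chosen with earlier results of these data known. Reads were counted without molecular identifiers, so they need not be separate molecules.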

Additional observations from a re-analysis of the deposited data

Results flagged for a closer look

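In 4 of the 80 sets of 4 libraries (10 genes in 8 groups) 1 sheep lay far from the other 3 of its group by Dixon's test, and chance alone gives about 1 in 20. PDGFRB accounts for 3 of the 4. It was low in the perirenal library of control sheep 132, at 140.0 CPM, where the other 3 held 212 to 221 CPM. It was high in the visceral library of testosterone sheep 48, at 212.9 CPM against 178 CPM in each of the others, and in the epicardial library of testosterone sheep 255, at 188.6 CPM against 93.4 to 108 CPM. THY1 was high in the visceral library of testosterone sheep 233, at 49.2 CPM against 16.5 to 19.4 CPM.

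CD55 ran in opposite directions in the treatment groups in 1 of the 60 pairings of gene and depots that were looked at. Subcutaneous exceeded perirenal fat in 4 of 4 control sheep, by a mean log2 difference of 0.383 within sheep, and was below it in 4 of 4 testosterone sheep, at -0.691. That difference was not tested on its own. The joint interaction of CD55 with depot had an edgeR adjusted p of 0.994.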

How the results depend on the processing

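The 7 genes called among depots in control sheep became 4 to 7 when 1 sheep was left out, and the 23 calls over pairs of depots became 14 to 19. In testosterone sheep the 4 genes became 1 to 3, and the 8 calls over pairs 1 to 8. Without the replicate block, testosterone sheep gave 2 genes and 5 calls, and control sheep 8 genes and 20 calls. DESeq2 gave 5 genes and 12 calls in testosterone sheep and 8 genes and 27 calls in control sheep. Leaving out the libraries that stood apart gave 5 genes and 12 calls in testosterone sheep and 5 genes and 16 calls in control sheep. The counts of genes called for testosterone, in each depot, summed and as an interaction, were 0 under every alternative run. Of the 31 signed differences called, 0 reversed under any alternative. Among 1670 alternative values of signed differences, called or not, 106 had another sign. FAP, PDGFRA, GSN and CD34 kept their joint call in control sheep, and PI16 in testosterone sheep, under all 9 alternatives. The levels moved by less than 1 SD under both other scalings. DESeq2 gave no adjusted p for 5 of the 10 genes in epicardial fat. In the smallest library CD55 rests on 4 counts and PI16 on 7, so their subcutaneous levels in sheep 48 are imprecise.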
